A study of Homo sapiens with 6 samples.

Results

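Aminoacyl-tRNA synthetases were examined after silencing of CTNNB1, the gene of beta-catenin, in the human gastric cancer line YCC3. The members are 35 genes taken by name, 19 for cytosolic and 16 for mitochondrial enzymes, out of 18417 genes measured. For each gene the array row that carries its symbol alone was used, and the brightest such row where there was more than 1. Cells in 6-well plates received CTNNB1 siRNA or a non-targeting control siRNA, both from Dharmacon, and total RNA was taken 48 hours later. There were 3 Affymetrix Human Gene 1.0 ST arrays per group. An siRNA is a small RNA duplex whose matching mRNA the cell then degrades. All groups share the same cell line, medium and transfection, and the labels give no siRNA sequence. The labels call the arrays biological replicates but name no separate cultures, so what the p-values weigh is the spread among these arrays, which may be technical.

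A synthetase joins an amino acid to its tRNA, the step that sets the meaning of each codon. The cytosol and the mitochondrion mostly use separate enzymes, all of them encoded in the nucleus, but GARS1 and KARS1 serve both places. The enzymes fall into class I and class II by the fold of the catalytic domain. In the cytosol several of them sit together in the multi-synthetase complex. Many cytosolic synthetase genes are induced by ATF4, the transcription factor of the amino acid response, and WARS1 is induced by interferon gamma. The aspartyl enzymes are not among the members and were not analysed here.

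Because the genes of many of these enzymes moved in 1 direction, their promoters were searched for the letters of known control elements. RefSeq windows from 250 bases before to 50 bases after a start (GRCh38.p14) were at hand for 30 of the 35 members, 16 cytosolic and 14 mitochondrial. The core of the C/EBP-ATF response element, which ATF4 binds, was searched as TGATGNAA on both strands. It was found in 7 of the 16 cytosolic and 1 of the 14 mitochondrial genes, and in 4.46% of all 27305 genes with a window. The 8 stretches are shown because they let the cytosolic genes be compared. Each is written 5′ to 3′ on the strand that carries the match, with the match in capitals.
IARS1: gcgcacggaggTGATGCAAcgcgctgaaaa
MARS1: gaatccctcgcTGATGCAAccggaaccggc
AARS1: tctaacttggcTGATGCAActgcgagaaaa
CARS1: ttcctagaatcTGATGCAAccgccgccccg
NARS1: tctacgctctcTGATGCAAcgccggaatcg
TARS1: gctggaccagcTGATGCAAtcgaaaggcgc
GARS1: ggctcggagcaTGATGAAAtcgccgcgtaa
YARS2: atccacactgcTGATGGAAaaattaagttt

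These stretches lie at chr9:92293692-92293721 (plus strand) for IARS1, chr12:57488053-57488082 (minus) for MARS1, chr16:70289675-70289704 (plus) for AARS1 and chr11:3057407-3057436 (plus) for CARS1. Those of the others lie at chr18:57621804-57621833 (minus) for NARS1, chr5:33440956-33440985 (minus) for TARS1, chr7:30594834-30594863 (minus) for GARS1 and chr12:32756076-32756105 (minus) for YARS2. The letters TGATGCAA are the same in 6 of them. A match is a string of letters and not a shown binding site. The E-box CACGTG, which MYC can bind, was in 1 cytosolic (IARS1) and 3 mitochondrial genes (CARS2, EARS2 and MARS2), and in 8.77% of all genes. The letters CTTTGAT, of the kind bound by the TCF/LEF partners of beta-catenin, were in no member's window and in 3.18% of all genes.

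The 250 bases before the IARS1 start (chr9:92293698-92293947, minus strand) hold both the E-box and, read here from the other strand, the ATF4 element, with both in capitals.
IARS1: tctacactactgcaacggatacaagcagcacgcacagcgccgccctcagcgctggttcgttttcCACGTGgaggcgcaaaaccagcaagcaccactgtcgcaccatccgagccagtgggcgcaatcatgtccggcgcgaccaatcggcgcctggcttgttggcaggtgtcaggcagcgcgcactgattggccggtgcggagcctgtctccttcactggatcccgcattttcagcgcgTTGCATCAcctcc

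WARS1 is shown because it is the member known for interferon control. The 250 bases before one of its starts (chr14:100375348-100375597, minus strand) hold a match to the interferon-stimulated response element, bound by interferon regulatory factors and searched on both strands as GAAA, any 2 bases and GAAA, in capitals.
WARS1: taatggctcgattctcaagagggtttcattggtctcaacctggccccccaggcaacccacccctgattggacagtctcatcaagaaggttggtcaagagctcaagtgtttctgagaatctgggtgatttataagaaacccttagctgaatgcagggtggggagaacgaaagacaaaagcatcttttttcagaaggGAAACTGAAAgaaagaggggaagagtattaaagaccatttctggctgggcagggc

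Among the 30 members with a window this element was in WARS1 and EARS2, and in 4.38% of all genes.

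Values are log2 RMA signals, so a difference of 1 is a factor of 2 in array signal, and changes are CTNNB1 siRNA minus control siRNA. A gene is said to have fallen or risen where limma's p, adjusted by Benjamini-Hochberg over all 18417 genes, was under 0.05. The targeted CTNNB1 mRNA measured 11.80, 11.81 and 11.90 with control siRNA and 10.94, 11.06 and 11.20 with CTNNB1 siRNA. Its signal was 41.4% lower (limma, adjusted p = 0.00267), and the groups did not overlap. Of 7 gastric epithelial markers, all measured at least 8.33 on every array, and CLDN4 and TFF1 rose by 0.61 ± 0.10 and 1.15 ± 0.11 (SE). The other 5 were not called, with KRT18 at -0.29 ± 0.10 and its groups not overlapping. Of 8 leukocyte markers 7 were measured: CD68 rose by 0.95 ± 0.14 and the other 6 were not called, with CSF1R at 0.33 ± 0.18. CD68 measured between 8.67 and 10.03, and none of the other 6 exceeded 5.91 on any array. The part of these leukocyte markers in the results was not tested. None of 8 fibroblast and endothelial markers was called, with LUM at 0.20 ± 0.10 and CDH5 at 0.20 ± 0.12, and none of these markers exceeded 6.81. In a bulk culture, fewer cells with a transcript and less of it per cell cannot be told apart.

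The cytosolic synthetases lay lower with CTNNB1 siRNA as a set of genes. Of 19, 8 fell, none rose and 11 did not pass, while 2.65% of all genes fell and 2.07% rose, 4.72% together. The median change was -0.33, against 0.006 over all genes. All 19 changes were below 0, from -0.54 for LARS1 to -0.11 for CARS1, and 48.8% of all genes had a change below 0. In 18 of the 19 every CTNNB1 siRNA array lay below every control array, which held for 15.2% of all genes. RARS1 was the exception. Among the 2798 genes whose mean signal lay within the range of these 19, 5.83% fell and 61.8% had a change below 0.

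The number of called members depended on single arrays. Limma called none of the 19 without control replicate 1, control replicate 3, CTNNB1 siRNA replicate 1 or CTNNB1 siRNA replicate 2, and 3 without control replicate 2. Of all genes, 0.516% to 0.863% fell in the 4 settings with none called, and 1.75% without control replicate 2. At an unadjusted p under 0.05 each of these 4 settings left 13 members. With all arrays 14 members and 20.3% of all genes passed it. The share of all genes was not counted in these 4 settings. All 19 changes stayed below 0 with any 1 array left out, with medians between -0.36 and -0.31. For the 18 genes whose groups did not overlap no other sign was possible. Only RARS1 could have turned, and its change ranged from -0.42 to -0.15. With the dimmest 50% of genes left out 13 were called, and 13.2% of the 9208 genes then tested fell.

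**Figure D1:**
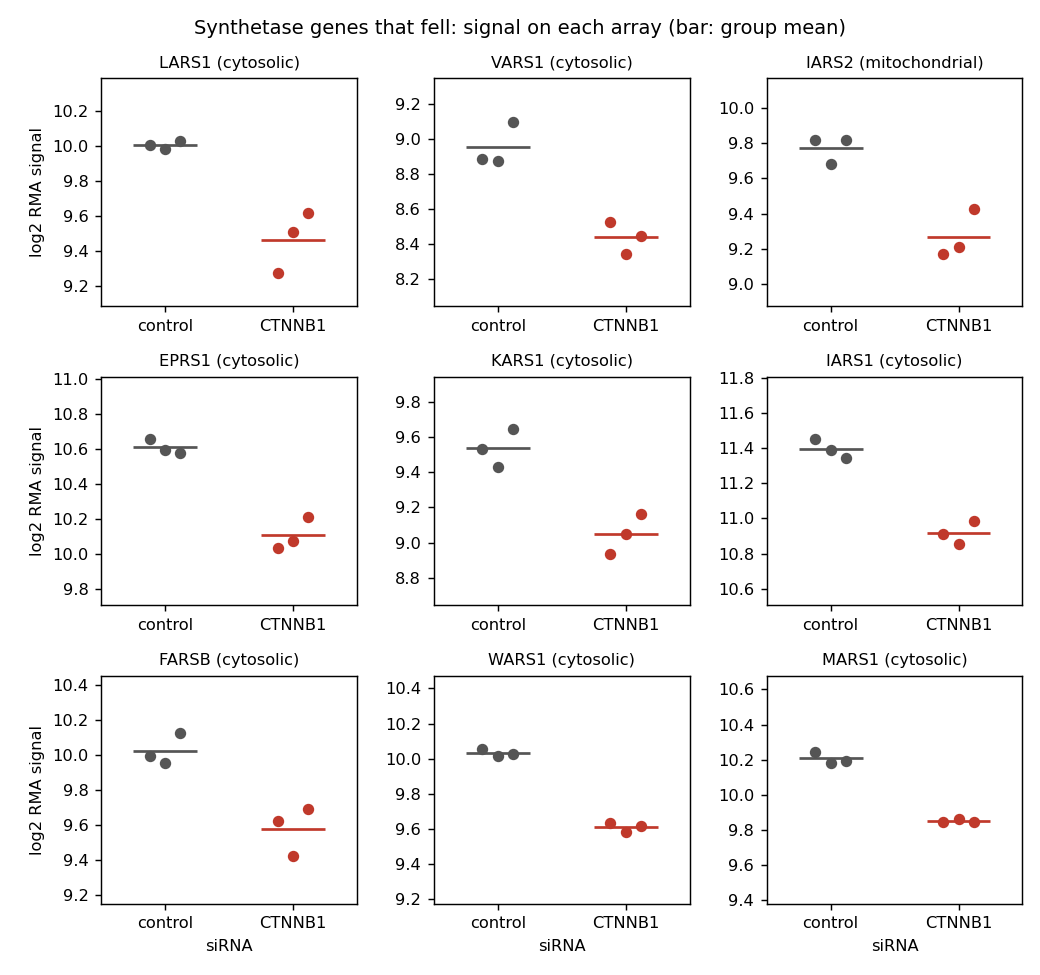
Log2 RMA signal (vertical axis, each panel spanning the same number of log2 units) of the 9 synthetase genes that fell, on the 3 control siRNA arrays (grey) and the 3 CTNNB1 siRNA arrays (red); bars are group means. In each panel every red point lies below every grey point.

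Of the 7 members of the multi-synthetase complex 5 fell. Their median change was -0.48, against 3 of 12 and a median of -0.29 for the other cytosolic enzymes; the difference between these groups was not tested. EPRS1 joins the enzymes for glutamate and proline in 1 protein and is the largest piece of the complex. Its signal was 10.66, 10.60 and 10.58 on the control arrays and 10.04, 10.08 and 10.21 on the CTNNB1 siRNA arrays, a change of -0.50 ± 0.10 (SE; limma, adjusted p = 0.0167). Its signal was 29.4% lower (95% confidence interval 18.2% to 39.1%), and the groups did not overlap.

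LARS1, the leucine enzyme, also acts as a leucine sensor for the growth kinase mTORC1. It measured 10.00, 9.98 and 10.03 with control siRNA and 9.27, 9.51 and 9.62 with CTNNB1 siRNA. The change was -0.54 ± 0.11 (limma, adjusted p = 0.0222), 31.1% less signal, and CTNNB1 siRNA replicate 1 was the lowest array. IARS1 charges isoleucine. Its values were 11.45, 11.39 and 11.34 against 10.91, 10.86 and 10.99, a change of -0.48 ± 0.09 (limma, adjusted p = 0.0190).

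KARS1, the lysine enzyme, makes both the cytosolic and the mitochondrial form from 1 gene. It went from 9.53, 9.43 and 9.65 to 9.05 ± 0.12 (SD, n = 3), with single arrays at 8.93, 9.05 and 9.16, a change of -0.49 ± 0.11 (limma, adjusted p = 0.0287). MARS1, which charges methionine for both initiator and elongator tRNA, had 10.24, 10.18 and 10.19 against 9.84, 9.86 and 9.84. Its groups were tightly spaced, with SDs of 0.03 and 0.01 (n = 3). The change of -0.36 ± 0.09 passed only at the edge (limma, adjusted p = 0.0499995), and it was lost with any 1 array left out and under the other quantile and loess scalings.

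The remaining 2 members of the complex were not called. QARS1, the glutamine enzyme, measured 9.47, 9.42 and 9.59 against 9.03, 8.99 and 9.25, with no overlap and a change of -0.40 ± 0.11 (limma, adjusted p = 0.0633). RARS1, the arginine enzyme, measured 9.69, 9.54 and 9.81 against 9.41, 9.12 and 9.65. Here CTNNB1 siRNA replicate 3 lay above control replicate 2, and the change was -0.29 ± 0.14 (limma, adjusted p = 0.283). Of 3 scaffold genes only AIMP1 was measured, at -0.28 ± 0.14 (limma, adjusted p = 0.319).

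Outside the complex, VARS1, FARSB and WARS1 fell. VARS1, the valine enzyme, binds the elongation factor complex that reloads EEF1A. It measured 8.89, 8.87 and 9.10 against 8.53, 8.34 and 8.45, a change of -0.51 ± 0.10 (limma, adjusted p = 0.0228). FARSB and FARSA encode the 2 subunits of the phenylalanine enzyme. FARSB measured 9.99, 9.95 and 10.13 against 9.62, 9.42 and 9.69, a change of -0.45 ± 0.11 (limma, adjusted p = 0.0445). FARSA, its partner, had 9.63, 9.64 and 9.52 against 9.40, 9.44 and 9.39, without overlap but with a smaller change of -0.19 ± 0.09 (limma, adjusted p = 0.289).

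WARS1, the tryptophan enzyme, fell while genes of an interferon list rose. Its values were 10.06, 10.01 and 10.03 with control siRNA and 9.63, 9.58 and 9.62 with CTNNB1 siRNA, 25.4% less signal. The change was -0.42 ± 0.09 (limma, adjusted p = 0.0262), and each group spanned a small part of the gap between them. In the same arrays 4 of the list's 5 measured genes rose, among them IRF1 by 0.70 ± 0.11, the antigen transporter gene TAP1 by 1.38 ± 0.10 and the immunoproteasome gene PSMB9 by 1.85 ± 0.14. CXCL10, a chemokine gene, rose by 2.52 ± 0.15 from a dim control signal of 4.81 that was not shown to be above background. The fifth, IDO1, which breaks down tryptophan, was not called, with no array above 3.67.

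The call of WARS1 was lost with any 1 array left out, with adjusted p from 0.0510 to 0.123 in limma, and under cyclic loess (0.0509). Its log2 change stayed between -0.43 and -0.41 with any 1 array left out. In limma's fits FARSB kept its call only without CTNNB1 siRNA replicate 3, as did IARS1 and LARS1. EPRS1, KARS1 and VARS1 also kept theirs without control replicate 2. Without control replicate 1 the adjusted p was 0.0915 for EPRS1 and 0.0945 for LARS1, and without control replicate 3 it was 0.0869 for VARS1, the highest for each.

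The 11 uncalled cytosolic members had changes from -0.40 to -0.11. TARS1, the threonine enzyme, measured 11.19, 11.15 and 11.25 against 10.83, 10.84 and 10.95 (-0.33 ± 0.09; limma, adjusted p = 0.0791). AARS1, the alanine enzyme, measured 10.68, 10.80 and 10.72 against 10.33, 10.46 and 10.45 (-0.32 ± 0.10; limma, adjusted p = 0.0863). GARS1, the glycine enzyme of both compartments, measured 11.78, 11.66 and 11.67 against 11.33, 11.44 and 11.44 (-0.30 ± 0.09; limma, adjusted p = 0.103). In these 3 genes the groups did not overlap. The asparagine enzyme NARS1 changed by -0.28 ± 0.10, the tyrosine enzyme YARS1 by -0.23 ± 0.10, the serine enzyme SARS1 by -0.17 ± 0.09 and the cysteine enzyme CARS1 by -0.11 ± 0.09, none of them called. The interval for CARS1 ran from -0.32 to 0.09.

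**Figure D2:**
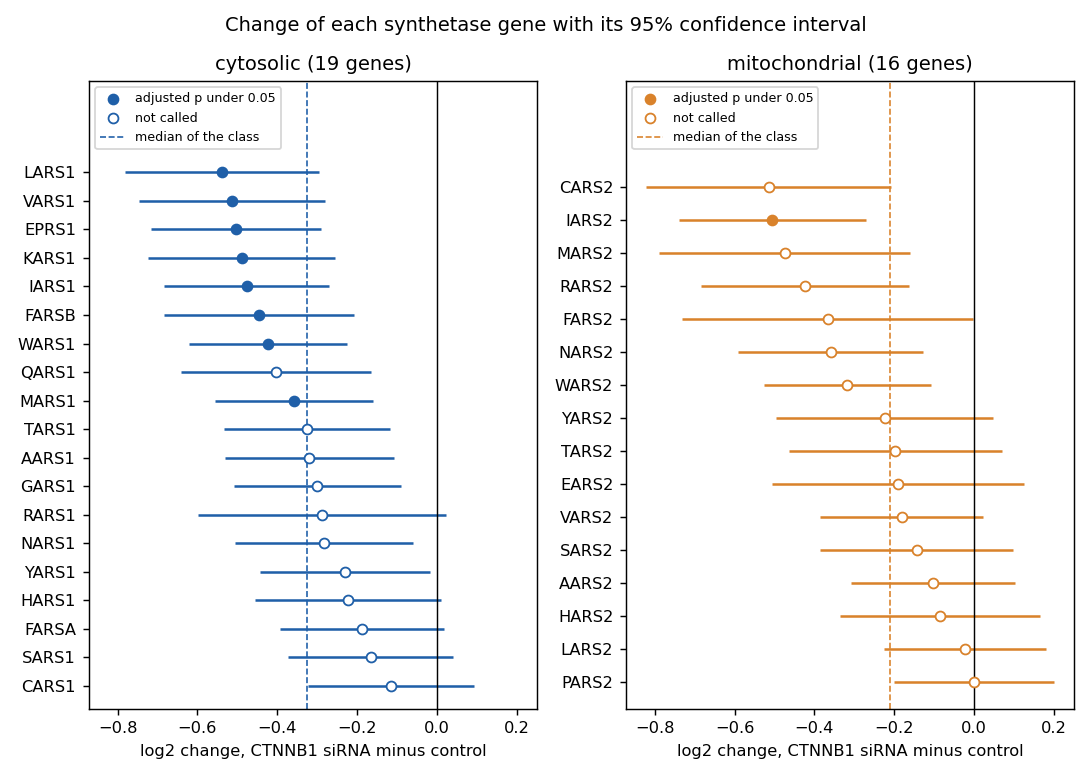
Log2 change of each synthetase gene (horizontal axis, CTNNB1 siRNA minus control siRNA) with its 95% confidence interval, cytosolic genes left and mitochondrial genes right; filled points passed an adjusted p of 0.05 and dashed lines are class medians. All points lie below 0, with 8 filled points among the cytosolic genes and 1, IARS2, among the mitochondrial genes.

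Mitochondrial synthetases make the proteins encoded by mitochondrial DNA possible, all of them parts of the respiratory chain and ATP synthase. Of 16 genes 1 fell and none rose, 15 were not called, and the median change was -0.21. All 16 changes were below 0 as deposited, though LARS2 and PARS2 turned above 0 under a second quantile normalization and under cyclic loess. In 8 of the 16 every CTNNB1 siRNA array lay below every control array, where 15.2% of all genes did so. Among the 8072 genes with mean signals in the range of these 16, 4.24% fell and 57.8% had a change below 0.

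IARS2, the isoleucine enzyme, was the gene that fell. It measured 9.82, 9.68 and 9.82 with control siRNA and 9.17, 9.21 and 9.43 with CTNNB1 siRNA. The change was -0.51 ± 0.11 (limma, adjusted p = 0.0250), 29.6% less signal with an interval of 17.1% to 40.1%. The call was lost without control replicate 1 (adjusted p = 0.116), control replicate 3, or CTNNB1 siRNA replicate 1 or 2. IARS2 and EPRS1 lie close together on chromosome 1 with 1 protein-coding gene between them, BPNT1. BPNT1, named after its values were seen, changed by 0.04 ± 0.09.

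CARS2, the cysteine enzyme, had as large a change but more spread. Its values were 9.57, 9.45 and 9.69 against 8.77, 9.11 and 9.29, a change of -0.51 ± 0.14 (limma, adjusted p = 0.0642). RARS2, the arginine enzyme, measured 7.41, 7.34 and 7.53 against 7.01, 6.81 and 7.19 (-0.42 ± 0.12; limma, adjusted p = 0.0697). NARS2, the asparagine enzyme, measured 7.10, 6.98 and 7.22 against 6.69, 6.67 and 6.85 (-0.36 ± 0.10; limma, adjusted p = 0.0815). In all 3 genes the groups did not overlap. MARS2 changed by -0.47 ± 0.14, FARS2 by -0.37 ± 0.16 and WARS2 by -0.32 ± 0.09, none of them called.

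At the other end, PARS2, the proline enzyme, measured 7.51, 7.52 and 7.60 against 7.55, 7.51 and 7.57. Its change was -0.0005 ± 0.09, with an interval from -0.20 to 0.20. LARS2, the leucine enzyme, measured 8.19, 8.29 and 8.30 against 8.24, 8.26 and 8.21, with an interval from -0.23 to 0.18. In both genes the arrays of the groups were intermixed. The other 7 uncalled mitochondrial genes, YARS2, TARS2, EARS2, VARS2, SARS2, AARS2 and HARS2, had changes from -0.22 to -0.08.

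HARS1 and HARS2, the cytosolic and mitochondrial histidine enzymes, stand head to head on chromosome 5. Their starts are 85 bases apart in RefSeq, and their promoter windows share 184 bases. HARS1 measured 8.65, 8.53 and 8.77 against 8.33, 8.43 and 8.52, without overlap but by a narrow margin (-0.22 ± 0.10; limma, adjusted p = 0.267). HARS2 measured 8.37, 8.13 and 8.36 against 8.17, 8.09 and 8.35, with overlap (-0.08 ± 0.11; limma, adjusted p = 0.731). Neither gene of the pair was called.

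Set side by side, the cytosolic median lay 0.11 log2 units below the mitochondrial one, and this difference depended on the scaling. It was -0.06 under a second quantile normalization and -0.04 under cyclic loess. On single arrays as deposited, medians were also taken relative to each gene's control mean. The cytosolic minus the mitochondrial median then had an SD within groups of 0.05. That is a spread of single arrays and not of the difference between the groups. No test was run on a score over the members. Leaving GARS1 and KARS1 out of the cytosolic class left 7 of 17 called and a median of -0.33. The standard errors also differed, with a median of 0.10 for the cytosolic and 0.11 for the mitochondrial genes.

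Pairing the cytosolic and mitochondrial genes of the same amino acid showed no single order. In 9 of 15 pairs the cytosolic gene had the more negative change and in 6 the mitochondrial gene did. FARS2 was paired once with each subunit gene of the cytosolic enzyme. EPRS1, for glutamate and proline, was left out of this count. Its change of -0.50 was more negative than those of EARS2 for glutamate (-0.19) and PARS2 for proline (-0.0005). Among the 15 pairs, the widest gap with a lower cytosolic gene was that of leucine, with -0.54 for LARS1 and -0.02 for LARS2. The widest gap the other way was that of cysteine, with -0.11 for CARS1 and -0.51 for CARS2. For isoleucine both genes fell, by 0.48 and 0.51. The differences within pairs were not tested.

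**Figure D3:**
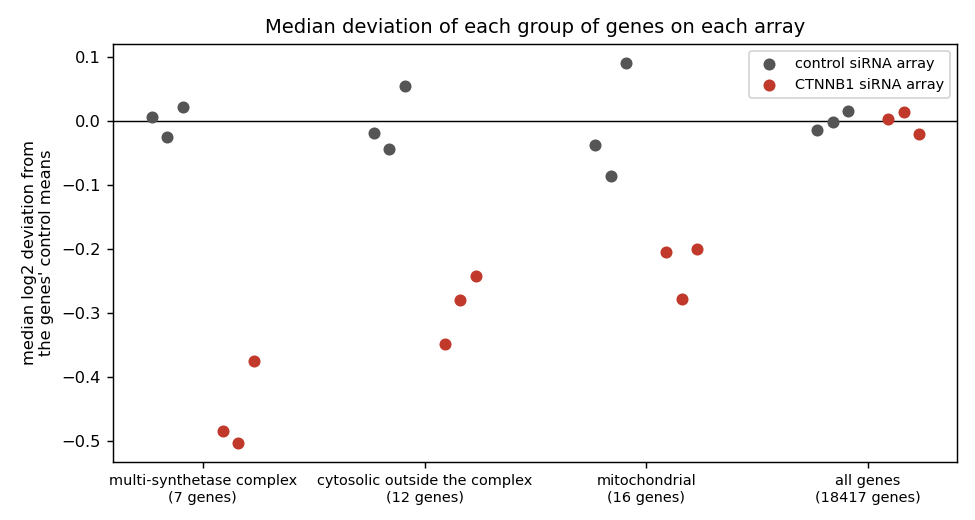
Median, over the genes of a group, of each array's log2 deviation from the genes' control means (vertical axis), for members of the multi-synthetase complex, the other cytosolic genes, the mitochondrial genes and all genes; grey points are control siRNA arrays and red points CTNNB1 siRNA arrays. The 3 red points lie between -0.50 and -0.37 for the complex and between -0.28 and -0.20 for the mitochondrial genes, and near 0 for all genes.

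Array by array, the cytosolic median stood at -0.37, -0.36 and -0.26 on the 3 CTNNB1 siRNA arrays, relative to each gene's control mean, and between -0.04 and 0.05 on the control arrays. The mitochondrial median stood at -0.20, -0.28 and -0.20 on the CTNNB1 siRNA arrays and between -0.09 and 0.09 on the control arrays. The control medians lie near 0 because the control means come from the same arrays. On every CTNNB1 siRNA array all 19 cytosolic genes lay below their control mean, which for 18 of them follows from the lack of overlap. Of all 18417 genes, 9123, 8802 and 9999 did so on CTNNB1 siRNA replicates 1, 2 and 3. CTNNB1 siRNA replicate 3 was the least shifted for the cytosolic genes, and control replicate 3 was the highest control array in both classes.

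By catalytic fold, 5 of 9 cytosolic class I genes fell and 2 of 9 class II genes, with medians of -0.40 and -0.30. EPRS1 has both folds and was left out of this count. This grouping overlaps with that by complex. The complex members IARS1, LARS1, MARS1, QARS1 and RARS1 are class I, and only KARS1 among those counted is class II. Among the mitochondrial genes 1 of 9 class I and none of 7 class II genes fell in limma's fit, with medians of -0.32 and -0.14. At an unadjusted p under 0.05 there were 5 and 2, against 20.3% of all genes. These differences were not tested.

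Of the 13 cytosolic genes reported to be induced by ATF4, 6 fell, and of the other 6, 2 fell (FARSB and KARS1). The medians were -0.33 and -0.35. Of the 7 cytosolic genes with the promoter letters TGATGNAA shown above, 2 fell (IARS1 and MARS1), with a median of -0.32. All 7 are among the 13 reported to be induced by ATF4, so the 2 counts are not separate observations. Of the 9 cytosolic genes with a window and no match 4 fell, with a median of -0.40. In a list of 16 genes of the ATF4 response, PSAT1, a serine synthesis enzyme gene, fell by 0.41 ± 0.09 (limma, adjusted p = 0.0303) and 15 did not pass. The list's median was -0.15, and 12 of its 16 changes were below 0. ASNS, the asparagine synthetase gene, stood at -0.40 ± 0.11 (limma, adjusted p = 0.0637). ATF3 went the other way, at 0.43 ± 0.11 (limma, adjusted p = 0.0637), with every CTNNB1 siRNA array above every control array. ATF4 itself stood at -0.05 ± 0.09. ATF3 and ATF4 were named after their values were seen. The call of PSAT1 was lost with any 1 array left out, with adjusted p of up to 0.140 without control replicate 1, and under cyclic loess.

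In a list of 10 accessory genes of tRNA charging 9 were measured. Of these 2 fell and 7 were not called, 7 of the 9 changes were below 0, and the median was -0.32. XPOT, the exporter that carries tRNA out of the nucleus, measured 9.82, 9.85 and 9.95 against 9.07, 9.27 and 9.29. Its change of -0.66 ± 0.10 (limma, adjusted p = 0.00623) was 36.8% less signal, and it kept its call with any 1 array left out. DTD2, a deacylase that clears wrongly charged tRNA, measured 7.90, 7.91 and 7.87 against 7.44, 7.18 and 7.24 (-0.60 ± 0.10; limma, adjusted p = 0.00998). Without control replicate 1 the adjusted p of DTD2 was 0.0519.

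Elongation factors deliver charged tRNA to the ribosome and move it along. Of 6 cytosolic factors 2 fell, with a median of -0.31. EEF1B2, a subunit of the exchange complex that VARS1 binds, measured 7.26, 7.36 and 7.47 against 6.82, 6.96 and 6.86 (-0.48 ± 0.10; limma, adjusted p = 0.0240). EEF2, the translocase, measured 11.63, 11.63 and 11.69 against 11.26, 11.25 and 11.25 (-0.40 ± 0.09; limma, adjusted p = 0.0338). The call of EEF1B2 was kept only without CTNNB1 siRNA replicate 2, with adjusted p of up to 0.0979 without CTNNB1 siRNA replicate 1. That of EEF2 was lost with any 1 array left out, with up to 0.128 without control replicate 1, and under cyclic loess. The other exchange subunits, EEF1D (-0.32 ± 0.09) and EEF1G (-0.30 ± 0.09), were named after their values were seen and were not called. Of 4 mitochondrial factors 3 were measured and limma called none. All 3 had an unadjusted p under 0.05, as did 20.3% of all genes. They included GFM1 at -0.40 ± 0.11 and TUFM at -0.27 ± 0.09.

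**Figure D4:**
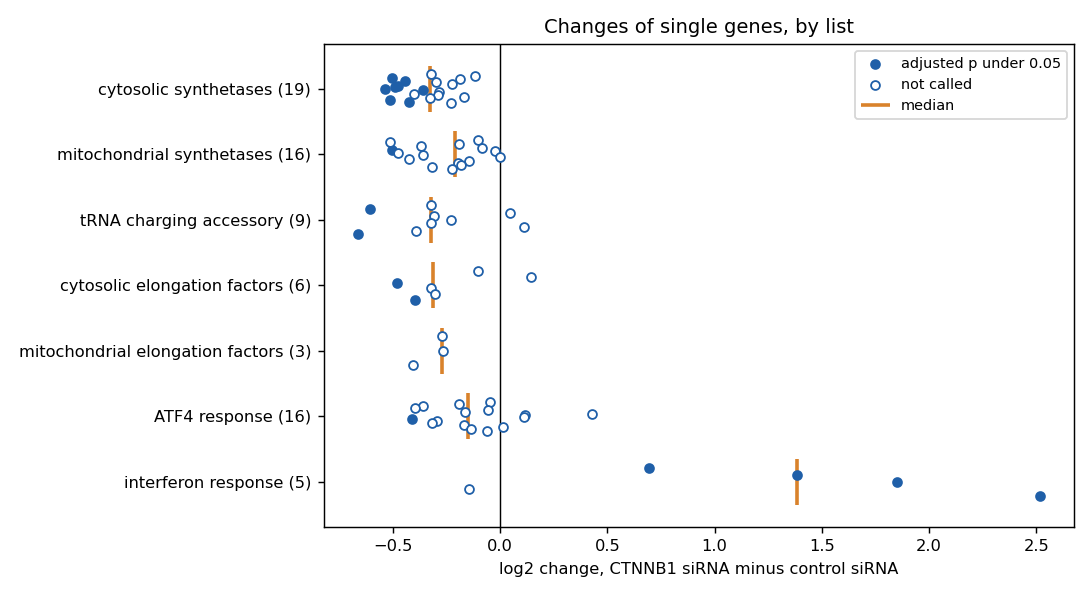
Log2 change of single genes (horizontal axis, CTNNB1 siRNA minus control siRNA) for the synthetases, other genes of tRNA charging and elongation, the ATF4 response and the interferon list; filled points passed an adjusted p of 0.05, orange bars are medians and the number of measured genes is in parentheses. Both synthetase classes lie at or below 0, and 4 of the 5 interferon genes lie between 0.70 and 2.52.

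Over all 18417 genes 488 fell and 382 rose, so that 43.9% of calls were rises, and 56.3% under cyclic loess. Under cyclic loess 5 cytosolic synthetases and 2.06% of all genes fell. FARSB, WARS1 and MARS1 were no longer called there, and the median of the 19 cytosolic genes was -0.25. All 19 cytosolic changes stayed below 0 there.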

How the data were processed

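The authors' deposited values are log2 signals made with RMA, and the submitters' processing notes also name Affymetrix Expression Console 1.1. RMA subtracts background, gives all arrays 1 probe distribution and summarises the probes of a row, so it would hide a shift common to most genes. The scale follows from the range of the values (0.789 to 14.45; array medians 5.88 to 5.95). Not given in the sources used here: genome build and background calls. The number of arrays limits the precision.

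Of 33297 rows, 19460 had exactly 1 gene symbol in the platform annotation, and the brightest row per gene gave 18417 genes. Of the members 33 had 1 row and 2 (VARS1 and VARS2) had 2. Limma 3.58.1 in R 4.3.3 (lmFit, eBayes, two-sided) compared 3 with 3 arrays, and p-values were adjusted over all genes. Errors are standard errors of that fit unless called SD. The fit was tested on simulated data. Arrays of a group differed, with an SD over genes of 0.203 to 0.262 log2 units.

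The members and lists were chosen with earlier results of these data known. Every array's value is given for called members, WARS1, GARS1, KARS1, HARS1, HARS2, and the 3 uncalled members with the smallest p in each class. Of each other list the called genes and the 2 with the smallest p are named. RARS1, FARSA, PARS2 and LARS2 were added after their values were seen. Promoter windows are RefSeq's. The 16 other settings are named in the closing section.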

Additional observations from a re-analysis of the deposited data

How the results depend on the processing

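The numbers of called synthetases moved with the processing, and their direction mostly did not. All 19 cytosolic changes were below 0 in each of the 16 other settings: a replicate block, 3 other scalings, 2 filters on dim genes, a robust variance with a trend, array weights, no moderation, averaging a gene's rows, and each of 6 arrays left out. Most of these settings could not turn a sign. The block, the filters, the variance settings and the averaging left each cytosolic change as it was. Leaving out or weighting arrays cannot turn the 18 genes whose groups did not overlap. A sign could have turned only under the scalings or, for RARS1, with arrays left out or weighted. PARS2 turned above 0 under a second quantile normalization (0.0332), cyclic loess (0.0451) and array weights (0.0143), and LARS2 under a second quantile normalization (0.0336) and cyclic loess (0.0405). With 1 array left out PARS2 ranged from -0.0159 without control replicate 1 to 0.026 without control replicate 3.

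With any 1 array left out, limma called 283 to 877 genes in all, 0 to 7 cytosolic and 0 to 3 mitochondrial members. At an unadjusted p under 0.05 the settings with none called left 13 cytosolic and 6 to 7 mitochondrial members. The share of all genes under that threshold was counted only for the main fit, where it was 20.3%. No other tool was run. Without the dimmest 25% of genes 1483 genes and 6 mitochondrial members were called, and without the dimmest 50% 1861 genes, 13 cytosolic and 6 mitochondrial members (VARS2 was then not tested). The trended variance gave 1622, 13 and 4, array weights 2 mitochondrial members, and no moderation 111, 2 and 0 (16 cytosolic and 6 mitochondrial at an unadjusted p under 0.05). Cyclic loess gave 5 cytosolic members. The share of tested genes that fell moved as well, from 2.65% in the main fit. It was 6.71% without the dimmest 25% and 13.2% without the dimmest 50%. The trended variance gave 5.63%, array weights 3.69%, no moderation 0.195% and cyclic loess 2.06%. With any 1 array left out it ran from 0.516% to 2.79%. The difference of class medians was -0.056 under a second quantile normalization and -0.039 under cyclic loess; the cause was not tested.

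The labels number the arrays alike in both groups, but no label ties equal numbers together. Deviations from the group means correlated at -0.02, 0.33 and 0.22 for numbers 1 to 3. Control replicates 2 and 3 correlated best with their own number, against -0.29 for control 2 with CTNNB1 siRNA 3 and -0.27 for control 3 with CTNNB1 siRNA 2. The deviations of a gene within a group sum to 0. A positive correlation with 1 array therefore forces a negative one with another, so the negative values are not a separate observation. Control replicate 1 was near 0 with all (-0.02, -0.04 and 0.06). Without a label that ties them, the numbers were not taken as pairs in the main fit. Whether arrays of equal number were handled together was not tested. With the replicate block 1177 genes, 8 cytosolic and 3 mitochondrial members were called: limma no longer called MARS1 (adjusted p = 0.0536) and also called QARS1 (0.0391), CARS2 (0.0409) and RARS2 (0.0376).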

Other observations

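VARS1 and VARS2 each had a second row on the array, which the comparison did not use. The 2 rows of VARS1 held the same value on every array. The second row of VARS2 changed by -0.16, beside -0.18 on the row used.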
